A study of Drosophila melanogaster with 36 samples.

Results

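The expression of 10 genes of DNA double-strand break repair was followed in Kc167 cells exposed to methyl methanesulfonate (MMS). The genes were mre11, rad50, nbs, Irbp, Ku80, DNAlig4, mus308, okr, Brca2 and Blm, and they are 10 of the 11981 genes tested on the arrays. They were listed by symbol for their known roles in break repair, with earlier results of these data known. Symbols matched 9 of them, and mus308 was found under the annotation's name PolQ as a synonym. Each had 1 probe set, so no second probe set checks any of the values.

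Kc167 is an established Drosophila melanogaster line from embryos that has traits of hemocytes, the blood cells of the fly, and it was grown here at 22°C. MMS-treated cells received fresh medium with MMS at 40 µg/mL and were harvested after 1, 8, 24 and 72 h, and control cells received fresh medium without MMS and were harvested after 0, 1, 8, 24 and 72 h. Each of the 9 groups had 4 Affymetrix Drosophila Genome 2.0 arrays (36 in all), and the design text describes the replicates as cultures grown independently. Values are RMA log2 expression, and changes are log2 differences ± SE (n = 4 arrays in each group). The SE of a gene rests on its spread pooled over all 9 groups, not on the groups compared alone. P-values were adjusted over all genes in limma, and a gene was called at an adjusted p under 0.05. A level belongs to its own probe set and is not set against that of another gene.

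MMS methylates DNA bases, and breaks can arise when replication or base excision repair meets the damaged bases. A broken end is bound early by the Mre11-Rad50-Nbs complex, which helps to activate the ATM kinase and starts the trimming of the end. Ku, a ring formed by Irbp (the fly Ku70) and Ku80, holds ends for direct joining by DNA ligase 4, polymerase theta (mus308) joins ends through short matching stretches, and homologous recombination copies an intact sister with the help of Brca2, okr (the fly Rad54) and the Blm helicase.

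Of the hemocyte markers, the GATA factor srp read 10.37 on the mean of all arrays, Hml 11.69 and Pxn 8.45, while lz (3.22) and gcm (4.03) were low. The 4 measured muscle markers lay between 3.23 and 4.00, and the germline list reached 9.52. The 8 arrays of the 8 h time, treated and control alike, stood apart in control probe sets, for a reason that was not tested. Their 3′ control probe sets exceeded the 5′ ones by 1.42 to 1.67, a value of 0.50 to 0.72 on the remaining 28 arrays, and their 18S rRNA probe set read 10.56 to 11.33, a value of 3.44 to 6.65 elsewhere. At 72 h the 3′ to 5′ difference was 0.69 to 0.72 on MMS arrays and 0.54 to 0.63 on control arrays, without overlap. With each array centred on its own median, the median gene changed by -0.21 with MMS at 72 h, in place of -0.05, so small changes at that time depend on the scale.

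After 1 h of MMS 0 of the 10 genes passed the test, where 0% of all genes were called. Their changes ran from -0.26 for okr to 0.12 for rad50, with a median of -0.13, against -0.01 over all genes. By unadjusted p-values under 0.05, limma gave 0 of the 10 genes and 684 of the 11981. MMS and control arrays overlapped for every member except Blm, which was lower on all 4 MMS arrays (-0.22 ± 0.12, adjusted p = 0.836). Of all genes, 2.26% were lower without overlap at this time.

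Over the later times 8 of the 10 genes were called at least once, where 44.5% of all genes were. At 8 h nbs and Brca2 rose and okr and Ku80 fell, where 8.85% of all genes were called higher and 11.5% lower. At 24 h nbs, Irbp, DNAlig4, mre11, mus308 and Ku80 rose and 0 fell, where 10.2% of all genes were called higher and 10% lower. At 72 h nbs, Brca2, Irbp and mre11 rose and 0 fell, where 17% of all genes were called higher and 12.5% lower. The median change of the 10 genes was 0.09 at 8 h, 0.49 at 24 h and 0.28 at 72 h, beside -0.02, -0.02 and -0.05 over all genes. The members rad50 and Blm were not called at any time. At 72 h a fit of only those 2 groups called nbs and Brca2. With the 3′ to 5′ difference as a covariate only nbs was called. That difference separates the 72 h groups, and the SE grew. In that fit Brca2 was 0.66 ± 0.26 (0.73 ± 0.20 without it), mre11 0.27 ± 0.11 (0.28 ± 0.09) and Irbp 0.24 ± 0.10 (0.30 ± 0.08).

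**Figure D1:**
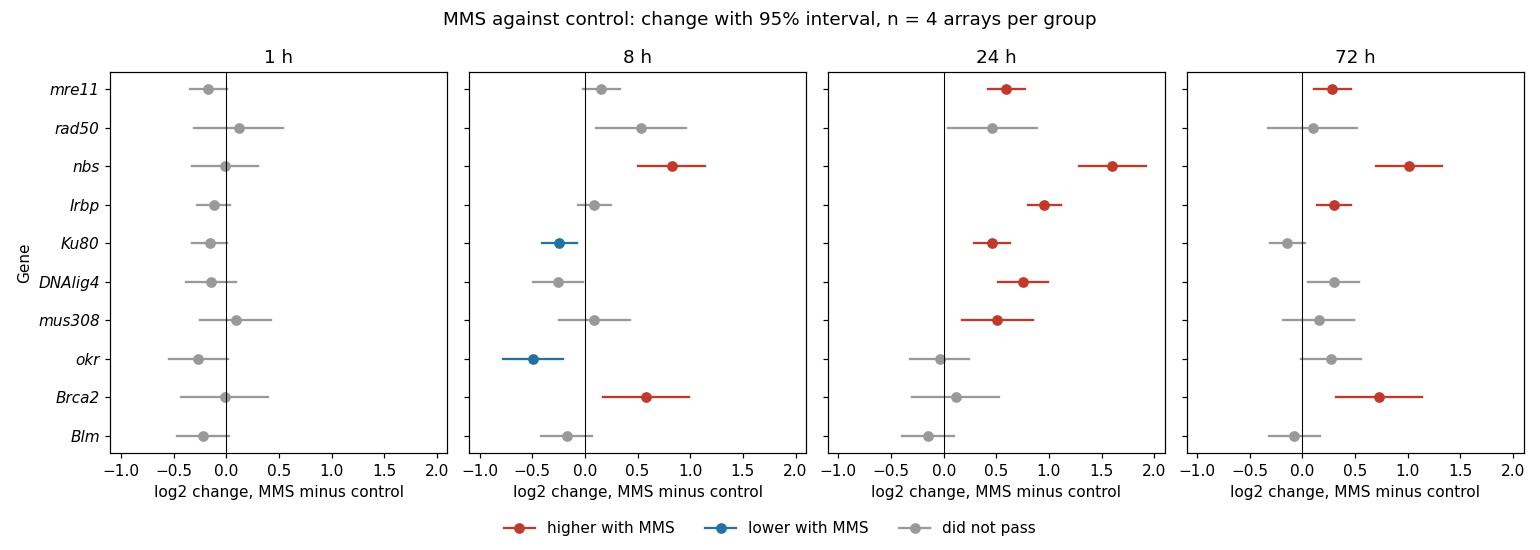
Change of each gene with MMS (log2, MMS minus control) at 1, 8, 24 and 72 h, with points for the estimate, bars for the 95% interval of the limma fit (n = 4 arrays per group), red for higher, blue for lower and grey for genes that did not pass an adjusted p of 0.05. No gene passed at 1 h, 6 are red at 24 h, and nbs is red at 8, 24 and 72 h.

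The gene nbs, which encodes the Nbs subunit that links the Mre11-Rad50-Nbs complex to ATM, was the only one of the 10 called at 3 times. At 8 h its arrays read 9.81, 10.21, 10.09 and 10.13 with MMS and 8.85, 9.30, 9.52 and 9.28 in controls. At 24 h they read 10.17, 10.25, 10.00 and 9.98 with MMS and 8.63, 8.56, 8.43 and 8.36 in controls. At 72 h they read 10.42, 10.26, 10.74 and 10.63 with MMS and 9.55, 9.70, 9.43 and 9.31 in controls. All 4 MMS arrays lay above all 4 control arrays at each of these times, a pattern shared by 9.66% of all genes at 8 h, 12% at 24 h and 15.9% at 72 h.

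The increase of nbs was 0.82 ± 0.15 at 8 h (adjusted p = 0.000175), 1.60 ± 0.15 at 24 h (adjusted p = 5.12e-10) and 1.01 ± 0.15 at 72 h (adjusted p = 3.36e-06), or 1.77-fold, 3.04-fold and 2.02-fold. It was the 1 member past 2-fold at 24 h and at 72 h, as were 2.4% and 3.58% of all genes in that direction. The call of nbs at these 3 times was kept under every alternative run. Ordered by mean, MMS at 72 h (10.51) stood first without overlap with the next group, and MMS at 24 h (10.10) and at 8 h (10.06) overlapped each other and lay above all controls. The lowest places were taken by control at 1 h (8.56), MMS at 1 h (8.55), control at 24 h (8.50) and control at 0 h (8.47), each overlapping its neighbour.

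The nuclease gene mre11 rose at 24 h and by less at 72 h. Its 24 h arrays read 11.48, 11.54, 11.31 and 11.26 with MMS and 10.82, 10.86, 10.78 and 10.76 in controls. The groups did not overlap, and the increase was 0.59 ± 0.09 (adjusted p = 1.75e-06). At 72 h the arrays read 11.42, 11.22, 11.65 and 11.61 with MMS and 11.19, 11.32, 11.11 and 11.15 in controls. MMS replicate 2 lay below control replicate 2, and the increase of 0.28 ± 0.09 (adjusted p = 0.0117) was not called without MMS replicate 3 (0.23, adjusted p = 0.0694) or MMS replicate 4 (0.24, adjusted p = 0.0583). With arrays centred on their median it was 0.12 (adjusted p = 0.21).

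At 8 h mre11 arrays read 11.48, 11.49, 11.50 and 11.46 with MMS and 11.20, 11.38, 11.44 and 11.31 in controls. The groups did not overlap, but the difference of 0.15 ± 0.09 did not pass (adjusted p = 0.236, 95% interval -0.02 to 0.33).

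The ATPase gene rad50, whose product bridges DNA ends within the same complex, was not called. At 24 h its arrays read 10.49, 10.52, 10.21 and 10.33 with MMS and 10.29, 9.98, 9.73 and 9.70 in controls. The groups overlapped through control replicate 1, and the difference was 0.46 ± 0.21 (adjusted p = 0.128, 95% interval 0.04 to 0.89). Same-numbered 24 h samples deviated together across all genes, and in a fit of the 24 h arrays alone with the replicate number as a block rad50 was 0.46 ± 0.09 higher (adjusted p = 0.000103). It also passed in a fit of the 24 h arrays without a block (adjusted p = 0.0208) and with array weights (0.54, adjusted p = 0.00996). In a fit of all arrays with the block it did not pass (adjusted p = 0.121).

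The spread of rad50 differed between groups. At 1 h its MMS arrays read 10.05, 10.29, 9.0 and 9.46, a range of 1.28 that was its widest, and its narrowest group range was 0.23. At 8 h its arrays read 10.60, 10.87, 10.83 and 10.87 with MMS and 9.78, 10.35, 10.62 and 10.29 in controls. MMS replicate 1 lay below control replicate 3, and the difference of 0.53 ± 0.21 did not pass (adjusted p = 0.0688), but it passed in a fit of the 8 h arrays alone (adjusted p = 0.0217). At 72 h the difference was 0.10 ± 0.21 (adjusted p = 0.755, 95% interval -0.33 to 0.52).

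Irbp, the Ku70 subunit, had the smallest adjusted p of the 10 genes. At 24 h its arrays read 10.34, 10.26, 10.23 and 10.20 with MMS and 9.24, 9.32, 9.35 and 9.30 in controls. The MMS arrays lay well clear of the controls, with an increase of 0.96 ± 0.08 (adjusted p = 8.57e-12), or 1.94-fold. At 8 h the same arrays read 10.03, 10.05, 10.05 and 9.95 with MMS and 9.95, 9.97, 9.90 and 9.89 in controls. The groups overlapped through MMS replicate 4, and the difference was 0.09 ± 0.08 (adjusted p = 0.49, 95% interval -0.07 to 0.25). At 72 h Irbp arrays read 10.40, 10.38, 10.76 and 10.56 with MMS and 10.28, 10.32, 10.17 and 10.12 in controls. They did not overlap, and the increase of 0.30 ± 0.08 (adjusted p = 0.00322) was not called with arrays centred on their median (0.14, adjusted p = 0.146).

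Ku80, the other subunit of the ring, rose at 24 h, when its arrays read 11.33, 11.33, 11.25 and 11.19 with MMS and 10.86, 10.75, 10.85 and 10.79 in controls. The groups were separate, with an increase of 0.46 ± 0.08 (adjusted p = 5.14e-05). At 8 h Ku80 arrays read 11.20, 11.05, 10.99 and 11.02 with MMS and 11.56, 11.34, 11.09 and 11.23 in controls. The groups overlapped and Ku80 fell by 0.24 (SE 0.08, adjusted p = 0.033), a call lost without control replicate 1 (-0.16, adjusted p = 0.217) or 2 (-0.23, adjusted p = 0.0758), or without MMS replicate 2 (-0.24, adjusted p = 0.0737), 3 (-0.22, adjusted p = 0.1) or 4 (-0.23, adjusted p = 0.0842). At 72 h Ku80 arrays read 11.54, 11.38, 11.64 and 11.60 with MMS and 11.70, 11.70, 11.58 and 11.76 in controls. The groups overlapped and the difference was -0.14 ± 0.08 (adjusted p = 0.201), which became -0.31 (adjusted p = 0.00586) with arrays centred on their median.

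DNAlig4, which seals the ends that Ku holds, rose at 24 h as well. Its arrays read 9.72, 9.75, 9.47 and 9.49 with MMS and 9.04, 8.93, 8.74 and 8.71 in controls, without overlap. The increase was 0.75 ± 0.12 (adjusted p = 6.16e-06), or 1.68-fold. At 8 h DNAlig4 arrays read 9.70, 9.50, 9.38 and 9.49 with MMS and 10.05, 9.81, 9.40 and 9.84 in controls. The groups overlapped through control replicate 3, and the difference was -0.26 ± 0.12 (adjusted p = 0.127). It passed as lower without that array (-0.38, adjusted p = 0.0131) and with arrays centred on their median (-0.33, adjusted p = 0.046). At 72 h the difference was 0.30 ± 0.12 (adjusted p = 0.0565), and it passed without MMS replicate 2 (0.41, adjusted p = 0.00791) or without control replicate 2 (0.35, adjusted p = 0.0393).

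The gene mus308, for polymerase theta of the alternative end-joining route, was called at 24 h only, with 6.65, 6.54, 6.24 and 6.45 in MMS arrays and 6.25, 6.26, 5.73 and 5.59 in control arrays. MMS replicate 3 lay just below control replicates 1 and 2, and the increase was 0.51 ± 0.17 (adjusted p = 0.0244). The call was lost without control replicate 3 (0.43, adjusted p = 0.0939) or 4 (0.39, adjusted p = 0.134), or without MMS replicate 1 (0.45, adjusted p = 0.083) or 2 (0.49, adjusted p = 0.0587). At 8 h the difference was 0.09 ± 0.17 (adjusted p = 0.787) and at 72 h 0.15 ± 0.17 (adjusted p = 0.511).

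**Figure D2:**
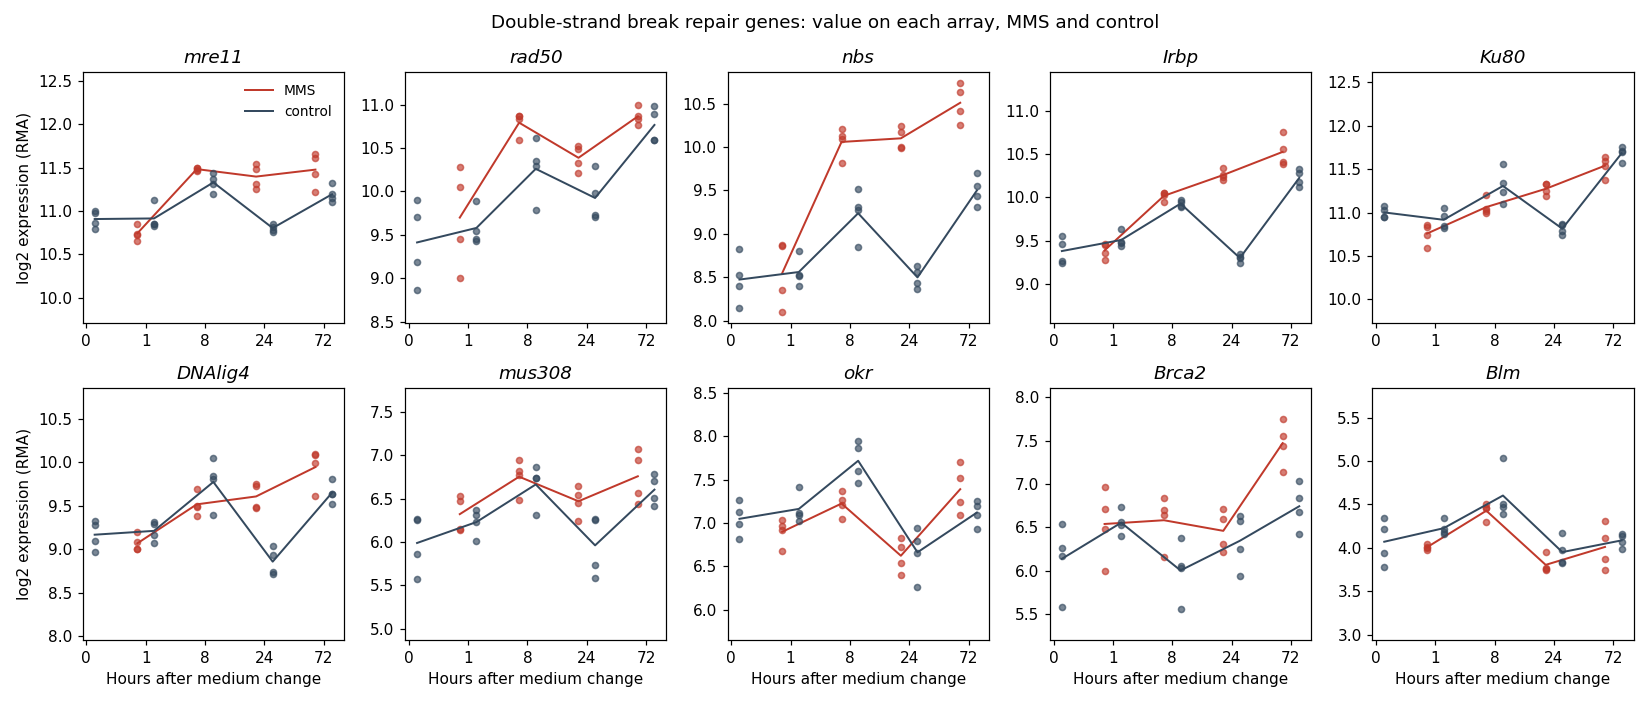
RMA log2 expression of the 10 genes on each of the 36 arrays, against hours after the medium change (evenly spaced, not to scale), with 1 point per array, red for MMS, dark blue for control and lines through the group means. All panels span the same number of log2 units; at 24 h the MMS points of nbs, Irbp, DNAlig4, mre11 and Ku80 lie above all their control points.

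Brca2, okr and Blm, named above for homologous recombination, were not called at 24 h, and differences between genes were not tested. Brca2, a mediator of homologous recombination, rose at 72 h, when its arrays read 7.44, 7.14, 7.75 and 7.56 with MMS and 6.68, 7.03, 6.84 and 6.42 in controls. The groups did not overlap and the increase was 0.73 ± 0.20 (adjusted p = 0.00601), or 1.66-fold. At 24 h Brca2 arrays read 6.71, 6.60, 6.22 and 6.31 with MMS and 6.63, 6.57, 6.25 and 5.94 in controls. These groups overlapped, with a difference of 0.11 ± 0.20 (adjusted p = 0.789, 95% interval -0.30 to 0.53).

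At 8 h Brca2 arrays read 6.15, 6.64, 6.70 and 6.84 with MMS and 5.56, 6.05, 6.38 and 6.03 in controls. The groups overlapped through MMS replicate 1 and control replicate 3, and the increase was 0.58 ± 0.20 (adjusted p = 0.0388). That call was lost without control replicate 1 (0.43, adjusted p = 0.196), 2 (0.59, adjusted p = 0.0628) or 4 (0.59, adjusted p = 0.0629), without MMS replicate 2 (0.56, adjusted p = 0.0878), 3 (0.54, adjusted p = 0.0987) or 4 (0.49, adjusted p = 0.132), and with arrays centred on their median (0.51, adjusted p = 0.0567).

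The gene okr encodes the Rad54 motor protein, which moves along DNA during homologous recombination. At 8 h its arrays read 7.37, 7.21, 7.05 and 7.27 with MMS and 7.94, 7.60, 7.46 and 7.87 in controls. All MMS arrays were below all control arrays, as for 14.8% of all genes, and okr fell by 0.49 (SE 0.14, adjusted p = 0.00947). Without control replicate 1 the difference was -0.42 (adjusted p = 0.056). At 24 h okr differed by -0.04 ± 0.14 (adjusted p = 0.903, 95% interval -0.32 to 0.24) and at 72 h by 0.27 ± 0.14 (adjusted p = 0.147, 95% interval -0.01 to 0.55). MMS replicates 3 and 4 at 72 h (7.70 and 7.52) lay above all 4 control arrays, which reached 7.25.

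Blm, a RecQ helicase that takes apart joined recombination intermediates, was dim, with values from 3.74 to 5.04 over the 36 arrays. Its differences were -0.17 ± 0.12 at 8 h (adjusted p = 0.361), -0.15 ± 0.12 at 24 h (adjusted p = 0.485) and -0.08 ± 0.12 at 72 h (adjusted p = 0.673). The 95% interval at 72 h ran from -0.32 to 0.17. All of its group means were under 5, the limit below which genes were left out of the fit without dim genes.

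The effect of MMS itself differed between times, tested as an interaction. From 8 to 24 h the effect became more positive for 5 of the 10 genes, where 4.96% of all genes were called in that direction and 3.02% in the other. The shift was 1.01 ± 0.17 for DNAlig4 (adjusted p = 7.67e-05), 0.87 ± 0.11 for Irbp (adjusted p = 1.24e-06), 0.78 ± 0.22 for nbs (adjusted p = 0.0214), 0.70 ± 0.12 for Ku80 (adjusted p = 8.53e-05) and 0.44 ± 0.12 for mre11 (adjusted p = 0.0196). The shift of mre11 was not called without MMS 24 h replicate 2 (0.39, adjusted p = 0.0512). The other 5 did not pass. Their shifts were -0.07 ± 0.29 for rad50 (adjusted p = 0.935), 0.42 ± 0.23 for mus308 (adjusted p = 0.324), 0.45 ± 0.20 for okr (adjusted p = 0.172), -0.46 ± 0.29 for Brca2 (adjusted p = 0.386) and 0.03 ± 0.17 for Blm (adjusted p = 0.952). With array weights okr passed (0.56, adjusted p = 0.0339). Differences between these genes in the shift were not tested.

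The group means behind the 5 shifts moved mainly in the controls. The mean of Irbp was 10.02 with MMS at 8 h and 10.26 with MMS at 24 h, while the control means at those times were 9.93 and 9.30. For nbs the MMS means were 10.06 and 10.10 and the control means 9.24 and 8.50. For DNAlig4 the MMS means were 9.52 and 9.61 and the control means 9.78 and 8.86. For Ku80 the MMS means were 11.06 and 11.27 and the control means 11.31 and 10.81, and for mre11 the MMS means were 11.48 and 11.40 and the control means 11.33 and 10.80. The control mean was the lower at 24 h for all 5 genes, while the MMS mean was lower at 24 h for mre11 and higher for the other 4. The MMS means at these times were not tested against each other. The 8 h arrays are also those with the 3′ to 5′ difference and the 18S rRNA signal given above, in both arms. With the 3′ to 5′ difference as a covariate, chosen after seeing the data, all 5 shifts were still called. The 18S rRNA signal was not fitted, and the part of these measures in the shift was not tested further.

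From 24 to 72 h the effect became less positive for 2 of the 10 genes, where 4.53% of all genes were called in that direction and 9.13% in the other. These were Irbp (-0.66 ± 0.11, adjusted p = 3.69e-05) and Ku80 (-0.60 ± 0.12, adjusted p = 0.000297), the 2 subunits of Ku. From 24 to 72 h the control mean rose from 9.30 to 10.22 for Irbp and from 10.81 to 11.68 for Ku80. The MMS mean rose by less, from 10.26 to 10.52 for Irbp and from 11.27 to 11.54 for Ku80. The shift for nbs was -0.59 ± 0.22 (adjusted p = 0.0702), for DNAlig4 -0.46 ± 0.17 (adjusted p = 0.0655) and for mre11 -0.31 ± 0.12 (adjusted p = 0.094). With arrays centred on their median nbs (adjusted p = 0.0213), DNAlig4 (adjusted p = 0.0238) and mre11 (adjusted p = 0.0133) passed.

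Within MMS-treated cells, 6 of the 10 genes were higher at 72 h than at 24 h, where 22.3% of all genes were called higher. The largest differences were 1.01 ± 0.20 for Brca2 (adjusted p = 0.000123) and 0.77 ± 0.14 for okr (adjusted p = 3.35e-05). They were 0.41 ± 0.15 for nbs (adjusted p = 0.0321), 0.34 ± 0.12 for DNAlig4 (adjusted p = 0.0201), 0.27 ± 0.08 for Ku80 (adjusted p = 0.00924) and 0.27 ± 0.08 for Irbp (adjusted p = 0.00593). With arrays centred on their median, which moved the median change of all genes from -0.07 to -0.25, Brca2 and okr passed and the other 4 did not. The calls of nbs and DNAlig4 were also lost without either of MMS 24 h replicates 3 and 4 or MMS 72 h replicates 3 and 4 (adjusted p = 0.0672 to 0.116), and that of Irbp without MMS 72 h replicate 3 (0.19, adjusted p = 0.053).

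These genes also moved in cells that never met MMS. Against control at 0 h, 0 of the 10 were called in control at 1 h, where 0.267% of all genes were, and 1 of the 10 and 856 of all genes had an unadjusted p under 0.05 in limma. In the same comparison 9 of the 10 were higher in control at 8 h, all but Brca2, where 16.8% of all genes were called higher. That is the time with the high 3′ to 5′ difference, 1.42 to 1.66 in control at 8 h and 0.51 to 0.56 at 0 h. With this difference as a covariate 0 of the 10 were called. The covariate separates these groups as time does, so that fit cannot tell them apart. Its SE for rad50 was 1.27, in place of 0.21. With arrays centred on their median Ku80 alone of the 9 did not pass (0.19, adjusted p = 0.0941). At 24 h 0 of the 10 were called, where 4.82% of all genes were higher and 10.8% lower, although 4 of the 10 and 3184 of all genes had an unadjusted p under 0.05 in limma. At 72 h 8 of the 10 were higher, where 16.7% of all genes were called higher. All of these comparisons share the 0 h arrays.

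At 72 h without MMS rad50 was 1.35 ± 0.21 higher than at 0 h (adjusted p = 2.01e-06), with 10.89, 10.99, 10.60 and 10.59 at 72 h against 9.19, 9.70, 9.90 and 8.86 at 0 h. The groups were separate, and the 0 h arrays of rad50 spread widely. For nbs the difference was 1.03 ± 0.15 (adjusted p = 1.43e-06), with 8.40, 8.52, 8.83 and 8.14 at 0 h, and for Irbp it was 0.84 ± 0.08 (adjusted p = 6.56e-11), with 9.46, 9.27, 9.56 and 9.24 at 0 h. Both genes were higher on all 4 arrays at 72 h than on any at 0 h.

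The increase in untreated cells at 72 h was 0.68 ± 0.08 for Ku80, 0.62 ± 0.17 for mus308, 0.61 ± 0.20 for Brca2, 0.48 ± 0.12 for DNAlig4 and 0.29 ± 0.09 for mre11. The call of Brca2 was lost without control 0 h replicate 4 (0.42, adjusted p = 0.118) or control 72 h replicate 2 (0.51, adjusted p = 0.0717), and that of mre11 with arrays centred on their median (0.16, adjusted p = 0.125). The values for okr (0.07 ± 0.14, adjusted p = 0.76) and Blm (0.02 ± 0.12, adjusted p = 0.947) did not pass. Time since plating and time since the medium change cannot be told apart in this comparison.

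**Figure D3:**
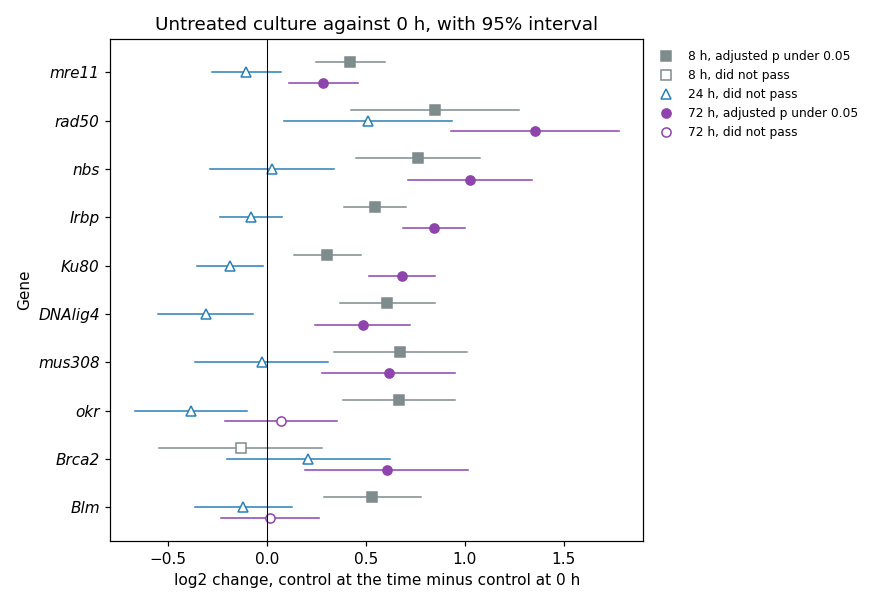
Change in control cells at 8, 24 and 72 h against control at 0 h (log2), with squares for 8 h, triangles for 24 h and circles for 72 h, filled where the adjusted p was under 0.05, and bars for the 95% interval of the limma fit (n = 4 arrays per group). At 8 h 9 of the genes were higher and at 72 h 8, while all 10 triangles at 24 h are open.

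Other repair genes were taken from lists of known roles, written with earlier results of these data known, and they moved in both directions at 24 h. At 24 h 10.2% of all genes were called higher and 10% lower. Of 15 measured homologous recombination partners, 2 rose and 8 fell at 24 h (median change -0.38). The 4 with the smallest adjusted p in any of the 4 comparisons of MMS with control had these values at 24 h: Rif1 (-1.33 ± 0.15), which restrains end trimming in mammals, the exonuclease gene tos (-0.98 ± 0.15), the nuclease gene mus81 (-0.48 ± 0.09) and mei-9, the XPF nuclease, which rose (0.63 ± 0.10). At 72 h 3 rose and 1 fell (median 0.14), where 17% of all genes were called higher and 12.5% lower.

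Of 7 listed end-joining partners, Xrcc4, XLF and DNAlig3 were not measured, and the 4 measured do not stand for them. Of the 4 measured, 3 fell and 1 rose at 24 h, where 10% of all genes were called lower and 10.2% higher. The flap nuclease Fen1 (-0.76 ± 0.12), DNA ligase 1 (DNAlig1, -0.74 ± 0.11) and the break sensor Parp1 (-0.50 ± 0.14) fell, and the scaffold XRCC1 rose (0.43 ± 0.10). DNAlig1 thus fell at the time when DNAlig4 rose, and the difference between these genes was not tested.

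Of 13 break-signalling genes, 2 rose and 5 fell at 24 h, where 10.2% of all genes were called higher and 10% lower. The transcription factor p53 rose by 1.40 ± 0.11 (adjusted p = 8.19e-12), and fell were the Chk2 kinase gene lok (-0.79 ± 0.09), mu2 (-0.79 ± 0.20), related to the mammalian scaffold MDC1, and mus101 (-0.87 ± 0.16), the fly TopBP1. At 72 h p53 differed by -0.20 ± 0.11 (adjusted p = 0.185). Of 9 measured genes of SMC5/6 and cohesin, ring complexes that hold chromatids, 3 rose and 0 fell at 8 h. At 24 h 2 of the 9 rose and 1 fell (median -0.004), and at 72 h 3 rose and 2 fell. Over all genes, 8.85% were called higher and 11.5% lower at 8 h, and 17% and 12.5% at 72 h. Nse4, an SMC5/6 subunit, was 1.04 ± 0.19 higher at 8 h, 0.94 ± 0.19 at 24 h and 0.76 ± 0.19 at 72 h. SMC5 itself rose at 8 h (0.56 ± 0.16, adjusted p = 0.01) and fell at 72 h (-0.73 ± 0.16, adjusted p = 0.000589).

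Genes of dividing cells fell at 24 h, when 6 of the break repair genes rose. At that time 15 of 18 replication genes and 9 of 9 mitosis genes were lower with MMS, where 10% of all genes were called lower. The median changes of the lists were -1.14 and -1.30. The mean level over the replication genes was 8.57 to 8.86 on MMS arrays and 9.67 to 9.81 on control arrays, and over the mitosis genes 8.89 to 9.14 and 10.22 to 10.28. Untreated cells at 72 h were also lower in 17 of 18 replication genes and 9 of 9 mitosis genes than at 0 h, where 19.8% of all genes were called lower. A changed share of dividing cells and a changed transcript level per cell cannot be told apart in bulk RNA, and the part of cell cycle genes in the changes of the 10 genes was not tested.

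**Figure D4:**
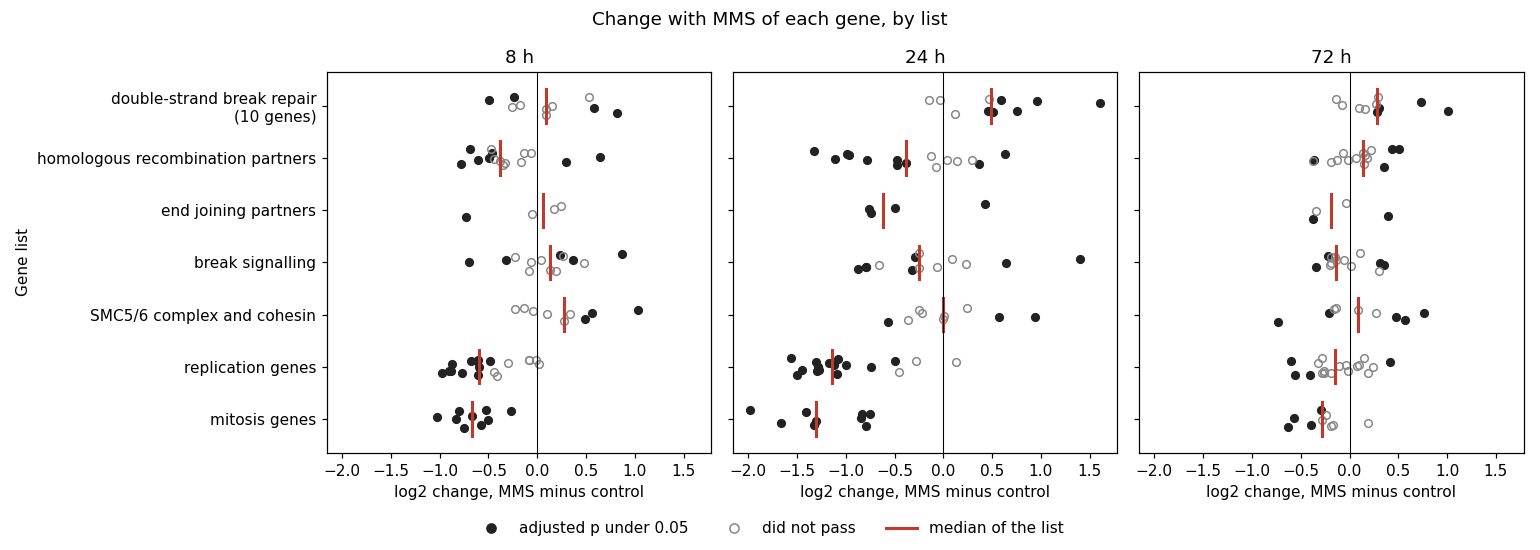
Change with MMS (log2, MMS minus control) of each measured gene at 8, 24 and 72 h, by list, with filled points at an adjusted p under 0.05, open points for genes that did not pass and a red bar for the median of the list. At 24 h the bar of the 10 break repair genes stands at 0.49, while those of the replication and mitosis genes stand at -1.14 and -1.30.

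Hemocyte markers moved in both directions with MMS at 24 h, 2 of 14 higher and 7 lower. At this time 10.2% of all genes were called higher and 10% lower. The mean level over the hemocyte list was 8.26 to 8.49 on MMS arrays and 8.67 to 9.13 on control arrays. Of the 4 neuronal markers 2 rose at 24 h, elav (0.75 ± 0.14, adjusted p = 0.000142) and brp (0.50 ± 0.13, adjusted p = 0.00312), with a mean over the list of 5.29 to 5.38 on MMS arrays and 4.95 to 5.13 on control arrays. Of the 4 germline markers bam, aub and bgcn fell, with a mean over the list of 6.24 to 6.68 on MMS arrays and 6.95 to 7.09 on control arrays. Of the 4 muscle markers up rose (0.31 ± 0.10, adjusted p = 0.0277), and the mean over the list was 3.62 to 3.83 on MMS arrays and 3.64 to 3.72 on control arrays. Of the 5 fat body and gut markers 0 were called, with a mean of 4.23 to 4.45 on MMS arrays and 4.29 to 4.44 on control arrays. The part of these markers in the changes of the 10 genes was not tested.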

How the data were processed

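RNA of 36 Kc167 cultures was hybridised to Affymetrix Drosophila Genome 2.0 arrays. The authors deposited RMA values on the log2 scale (background correction, quantile normalization, probe summary). Sources used here do not state which version of RMA was run. A change of total RNA per cell is not visible after quantile normalization. Arrays carry no sequencing depth, and their number limits the precision. Of 18952 probe sets, 13646 had 1 gene, 402 several, 4721 none in the annotation and 183 were controls, and 0 columns were left without a sample. The probe set with the highest mean stood for a gene, which left 11981 genes.

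A mean for each of 9 groups was fitted with limma 3.58.1 in R 4.3.3 (27 residual and 5.37 prior degrees of freedom), with two-sided moderated tests and Benjamini-Hochberg adjustment over all genes. This took the place of the permutation analysis named in the study's methods, whose settings are not given. P-values rest on the spread of arrays within groups, pooled for each gene over all 9 groups. In this fit a gene therefore has the same SE in every comparison of a pair of groups, although its spread can differ between groups. Members and lists were chosen with earlier results of these data known. All 10 members are named, as are, for each member, genes whose 9 group means correlate best with its own. Of the context lists, up to 4 called genes with the smallest adjusted p are named. Genes of the replication and mitosis lists are not named, and hemocyte markers are named for their level only. Of the lists' written genes, 15 of 23 homologous recombination partners, 4 of 7 end-joining partners, 13 of 14 signalling, 9 of 11 SMC5/6 and cohesin, 18 of 22 replication and 9 of 15 mitosis genes were measured. The labels number the replicates 1 to 4 but do not say that a number marks a shared culture. At 24 h the deviations of same-numbered MMS and control samples correlated in all 4 pairs (0.356 to 0.529), but of all 16 pairs only 7 exceeded 0.1. Alternatives were another scaling, a filter on dim genes (mean under 5), another variance prior, array weights, all probe sets averaged, only the groups compared, a replicate block, and each array left out. A covariate for the 3′ to 5′ difference and the block within only the groups compared were chosen after seeing the data.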

Additional observations from a re-analysis of the deposited data

Results flagged for a closer look

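In 4 of 90 groups of 4 arrays 1 array stood far from the other 3, where chance alone gives about 1 group in 20. For mre11, control at 1 h replicate 3 read 11.13, against 10.83 to 10.85 on the others. For rad50, MMS at 8 h replicate 1 read 10.60, against 10.83 to 10.87. For Blm, control at 8 h replicate 2 read 5.04, against 4.39 to 4.5, and MMS at 24 h replicate 2 read 3.95, against 3.74 to 3.77.

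The effect of MMS differed between 24 and 8 h by the interaction test for mre11 (0.44), nbs (0.78), Ku80 (0.70), Irbp (0.87) and DNAlig4 (1.01), and between 72 and 24 h for Ku80 (-0.60) and Irbp (-0.66).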

How the results depend on the processing

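Of 2059 repeats of the 110 member values, 65 changed sign where neither value was called. Of the repeats that left no array out, 949 stayed called or stayed not called, and this count includes sign changes where neither value was called. A call was gained in 37 and lost in 28, and 5 called values changed sign. Those 5 were control at 8 h against 0 h with the 3′ to 5′ difference as a covariate: rad50 -0.081, Ku80 -0.058, DNAlig4 -0.87, okr -1.38 and mus308 -0.55, with SE of 0.50 to 1.27. That covariate separates the 8 h arrays from the rest as the time does, and under it 0 of 10 genes were called there, 1 at 72 h of MMS, 1 for control at 24 h against 0 h and 2 for MMS at 72 h against 24 h. At 72 h of MMS 2 genes were called in a fit of only those groups, with or without a replicate block. In the fit of all arrays the replicate block left each count as it was, with 4, 6 and 4 genes at 8, 24 and 72 h, and samples correlated best with their own number in 6 of 16 cases. For the effect at 72 h against 24 h, 5 genes were called after centring, after a further quantile normalization and with array weights. For control at 24 h against 0 h, 2 were called lower after centring, 1 after quantile normalization, 2 without dim genes (9 members left) and 2 with array weights. For MMS at 72 h against 24 h, 2 were called after centring. The cause of these differences was not tested.

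With 1 array left out, the count of called genes was 0 to 0 at 1 h, 1 to 6 at 8 h (1 without control replicate 1), 5 to 6 at 24 h and 3 to 6 at 72 h of MMS against control. It was 4 to 5 for the effect at 24 h against 8 h, 2 to 4 at 72 h against 24 h, 0 to 0, 9 to 9, 0 to 2 and 7 to 8 for control at 1, 8, 24 and 72 h against 0 h, and 3 to 6 for MMS at 72 h against 24 h. With 4 arrays per group and 1 probe set per gene, differences of the size of those reported as not passing can be missed.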

Other observations

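At 72 h of MMS the 10 genes ordered the 4 arrays alike. Replicate 3 was highest and replicate 2 lowest for all 10, whereas replicate 3 was highest for 26.6% of all genes and replicate 2 lowest for 34.5%. At 24 h of MMS replicates 1 and 2 lay above replicates 3 and 4 for all 10 genes, and for 29.9% of all genes. Members of 1 array share its RNA and scale, so these orders are not independent observations, and what the arrays share was not tested.

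Over the 9 group means, the course most like that of nbs was that of rdog (Pearson r 0.988), and GstD10 (0.979) was most like Irbp. Tsp42Ea (0.99) was most like mre11, CG31678 (0.992) most like rad50, Tcs4 (0.988) most like Ku80 and RabX6 (0.957) most like DNAlig4. Fancm, a helicase gene of crosslink repair, was most like Brca2 (0.972), cal1, which places the centromeric histone, most like Blm (0.977), Sirt7 most like okr (0.975) and Ranbp21 most like mus308 (0.963). Each is the highest of the correlations with all other genes tested, over 9 points that share arrays, and is given as a description.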
